A study of Mus musculus with 8 samples.

Results

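Oxidative phosphorylation is carried out by 5 protein complexes of the inner mitochondrial membrane, and the nuclear genes for their subunits were followed here through the cells of MC38 tumors. The genes were taken by symbol: those starting with *Ndufa*, *Ndufb*, *Ndufc*, *Ndufs* or *Ndufv* (complex I), *Uqcr* (complex III), *Cox4* to *Cox8* (complex IV) or *Atp5* (complex V), together with *Sdha* to *Sdhd* (complex II) and *Cycs* (cytochrome c), without *Ndufaf* genes and pseudogenes. This rule found 85 of the 24787 genes listed, of which 38 belong to complex I, 4 to complex II, 8 to complex III, 17 to complex IV and 17 to complex V by their symbols. *Atp5s* and *Atp5sl* (*Dmac2l* and *Dmac2* in newer annotation) are caught by the rule although they are not known as subunits of the ATP synthase. Set beside them were the 11 protein genes of the mitochondrial genome that the files list (the mt- genes). Single cells of subcutaneous MC38 tumors, a colon carcinoma line of C57BL/6 origin, were profiled 24 hours after dosing with saline (3 tumors), free R848 (3 tumors) or medium R848-BPDs (2 tumors). R848 (resiquimod) is an agonist of Toll-like receptors 7 and 8, and the medium R848-BPD is a bottlebrush polymer prodrug that releases it at an intermediate rate. The labels give no dose, age or genotype for these mice, and the study's methods name C57BL/6 mice as hosts of MC38 tumors, with 8-week-old female C57BL/6J mice among the strains listed. CD45+ and CD45- cells were mixed 9 to 1 before loading, so the share of MC38 cells among all cells was set by the experimenters.

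Electrons enter the chain at complex I (from NADH) or complex II (from succinate), pass through complex III and cytochrome c to complex IV, where oxygen is reduced, and the proton gradient that results drives ATP synthesis at complex V. Complex II is encoded by nuclear genes alone, whereas complexes I, III, IV and V each also depend on mitochondrial DNA for at least some of their core. Macrophages activated through Toll-like receptors are known for a shift from respiration towards glycolysis, with itaconate (made by the enzyme that *Irg1*, now *Acod1*, encodes) inhibiting complex II and nitric oxide (made by *Nos2*) inhibiting complex IV.

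Promoters of these genes are known for sites of NRF1 and of ETS-family factors such as GABP. A RefSeq promoter on GRCm38.p6 (250 bases before and 50 after the start) was found for 70 of the 85 members. The NRF1 motif (GCGCA, any base, then GCGC) was present on either strand in 17 of them (24.3%, against 5.19% of all 27025 genes with a promoter). The ETS motif CCGGAAG was present in 16 (22.9%, against 9.93%) and the YY1 motif ATGGCGGC in 7 (10%, against 2.6%), and 35 of 70 promoters held at least 1 of the 3 (50%, against 15.8%). Printed here are the 120 bases that end directly before the RefSeq start for the 4 members called in MC38-like cells, for *Sdha*, which was among the members with the largest difference in osteoclast-like cells, and for *Uqcr11*, whose p was smallest in NK-like cells. On GRCm38.p6 they lie at chr8:83566638-83566757 (plus strand, *Ndufb7*), chr6:24527691-24527810 (minus strand, *Ndufa5*), chr5:108434400-108434519 (minus strand, *Atp5k*), chr5:145191542-145191661 (minus strand, *Atp5j2*), chr13:74350241-74350360 (minus strand, *Sdha*) and chr10:80406822-80406941 (minus strand, *Uqcr11*). Each is written 5′ to 3′, and capitals mark matches to the 3 motifs. A match is a stretch of letters and was not tested for binding.
Ndufb7: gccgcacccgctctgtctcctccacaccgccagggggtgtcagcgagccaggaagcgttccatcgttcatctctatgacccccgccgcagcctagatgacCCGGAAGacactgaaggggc
Ndufa5: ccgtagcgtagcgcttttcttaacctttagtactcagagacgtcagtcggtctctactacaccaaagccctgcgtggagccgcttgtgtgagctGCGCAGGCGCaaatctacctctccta
Atp5k: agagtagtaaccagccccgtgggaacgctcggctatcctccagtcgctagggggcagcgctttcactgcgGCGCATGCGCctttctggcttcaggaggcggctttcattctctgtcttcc
Atp5j2: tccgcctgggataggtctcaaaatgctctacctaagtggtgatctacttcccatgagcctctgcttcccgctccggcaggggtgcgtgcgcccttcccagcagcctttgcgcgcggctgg
Sdha: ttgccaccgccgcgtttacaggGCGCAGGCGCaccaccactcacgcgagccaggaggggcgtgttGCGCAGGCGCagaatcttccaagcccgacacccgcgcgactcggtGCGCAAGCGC
Uqcr11: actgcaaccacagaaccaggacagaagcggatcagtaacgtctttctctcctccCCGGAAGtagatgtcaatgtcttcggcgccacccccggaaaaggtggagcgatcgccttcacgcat

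The stretch of *Ndufb7* held an ETS match at -20 from the start, that of *Uqcr11* an ETS match at -66, and those of *Atp5k* and *Ndufa5* each held an NRF1 match, at -50 and -26. *Sdha* held 3 NRF1 matches, at -98, -55 and -10. In the 120 bases shown for *Atp5j2* none of the 3 motifs was found. *Ndufa5* is listed with a further start downstream, and only the upstream start is shown. RefSeq starts can differ from those of the GENCODE genes given below.

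Cells were assigned to classes from marker genes that include no member and no mt- gene. Of 9838 cells used, 5175 were monocyte/macrophage-like, 1652 MC38-like, 956 NK-like, 483 T-like, 467 DC-like and 134 osteoclast-like. Each marker list was highest in its own class, which follows from assigning cells by these lists, and none of its genes was at 0 there. With classes taken from clusters, 88.8% (T-like) to 99.5% (MC38-like) of the cells kept their class. UMI totals ranged from 5867590 to 12422614 per tumor. At least 10 osteoclast-like cells were found in only 2 tumors (saline replicate 3 and free R848 replicate 2), so no treatment comparison was made in them. Saline replicate 2 differed most from the other saline tumors (chi-square per degree of freedom of 33.7 and 36.4 in monocyte/macrophage-like cells, where other pairs of the same treatment reached 9.62 at most) and held only 12 DC-like cells. No label gives separate batches, so a batch effect cannot be told apart from the treatment. Nothing in the labels beyond replicate numbers says how the tumors of a group were related.

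The summed members took a larger part of the RNA of MC38-like, NK-like and T-like cells than of monocyte/macrophage-like and DC-like cells, and the largest part in osteoclast-like cells. Their share of all UMIs averaged 0.894% ± 0.0613 (SD, n = 8 tumors) in monocyte/macrophage-like and 0.764% ± 0.0868 in DC-like cells, against 1.4% ± 0.114 in MC38-like, 1.37% ± 0.124 in NK-like and 1.28% ± 0.07 in T-like cells (n = 8 each). Within a tumor, MC38-like cells were above monocyte/macrophage-like cells in 8 of 8 cases, by a ratio of 1.57 ± 0.0969 (SD), and NK-like cells by 1.53 ± 0.107. Osteoclast-like cells stood highest, with 2.44% in the saline tumor and 2.59% in the free R848 tumor, 2.81 and 2.83 times the share in the monocyte/macrophage-like cells of those tumors. DC-like cells were below monocyte/macrophage-like cells in 8 of 8 tumors (ratio 0.856 ± 0.0908). Between NK-like and T-like cells the ratio was 1.07 ± 0.0834 (0.937 to 1.19), with NK-like cells higher in 6 of 8 tumors. This ratio was not tested.

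**Figure D1:**
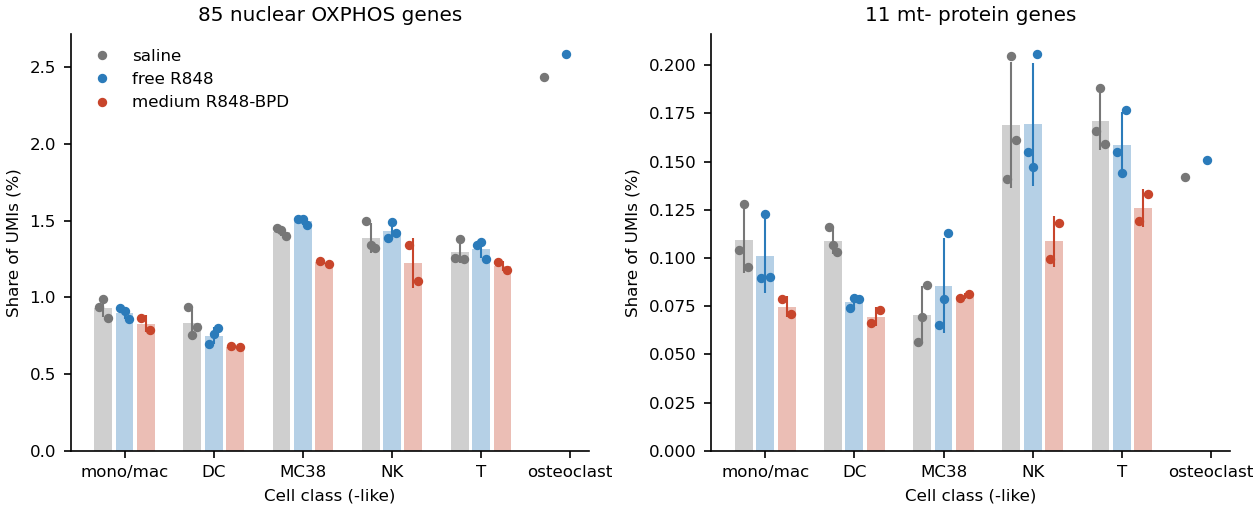
Share of all UMIs (%, linear axis) that fell on the 85 nuclear genes (left) and on the 11 mt- protein genes (right), by cell class and treatment. Points are tumors, bars are means and lines are SDs (n = 3, 3 and 2 tumors for saline, free R848 and medium R848-BPD), and osteoclast-like cells are shown as single tumors. After medium R848-BPDs, MC38-like (1.22% and 1.24%), DC-like and T-like cells lie below all 6 other tumors of their class on the left.

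The mt- genes had another order. Their share was 0.0787% ± 0.0169 (SD, n = 8) for MC38-like cells, below the 0.0974% ± 0.0198 of monocyte/macrophage-like cells, and MC38-like cells were higher in only 3 of 8 tumors (ratio 0.846 ± 0.273), while NK-like (0.154% ± 0.0374) and T-like cells (0.155% ± 0.0226) were higher than monocyte/macrophage-like cells in 8 of 8 tumors each. Most mitochondrial UMIs were ribosomal: *mt-Rnr1* and *mt-Rnr2* together took 4.04% ± 0.72 of UMIs in monocyte/macrophage-like cells, against 2.36% ± 0.34 in MC38-like cells. Among the protein genes *mt-Co1*, the catalytic core of complex IV, was at a mean of 472 ± 95.8 CPM in monocyte/macrophage-like cells (UMIs of a gene per 1000000 UMIs of the class; SD, n = 8), *mt-Nd1*, a membrane subunit of complex I, at 167 ± 50.1, and *mt-Cytb*, the core of complex III, was at 81.9 ± 21.4. *mt-Atp6*, a subunit of the ATP synthase, was at 0.0663 ± 0.136 and *mt-Co2* was listed at 0 in every class, so the file values do not give the level of every mt- transcript.

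Some nuclear members had low counts too, for a reason that was not tested. *Atp5g2* had 1 UMI in all 6 classes, *Cycs*, the electron carrier between complexes III and IV, was at 7.26 ± 1.17 CPM in monocyte/macrophage-like and 8.57 ± 2.38 in MC38-like cells (SD, n = 8), and *Cox7c* and *Atp5l* were also under 10 CPM in both. Of 84 members matched to GENCODE vM21 transcripts, 30 shared an exact run of 50 bases in their last 300 bases with a transcript of at least 1 other gene, so their counts could be divided between genes. *Atp5l* and *Atp5g1* shared one with 11 other genes each, *Cox7c* with 3 and *Atp5k* with 2, whereas *Cycs*, *Ndufb7* and *Ndufa5* shared none.

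Single members followed the order of the sum, with exceptions. Of the 78 members with at least 10 CPM in some class, 71 had their highest mean in osteoclast-like cells. With that class left aside, 31 were highest in MC38-like, 31 in NK-like, 13 in T-like, 2 in monocyte/macrophage-like and 1 in DC-like cells. For the core subunits of complex I, *Ndufs1* (the NADH-side iron-sulfur protein) averaged 42.9 ± 4.48 CPM in monocyte/macrophage-like, 104 ± 13.1 in MC38-like and 67.8 ± 16.3 in NK-like cells (SD, n = 8 tumors each). *Ndufv1*, which binds NADH, was at 58.8 ± 5.67, 150 ± 14.1 and 107 ± 13.1. Subunits of complex II differed less between monocyte/macrophage-like and MC38-like cells. *Sdha*, the flavoprotein that oxidizes succinate, was at 126 ± 12.3 in monocyte/macrophage-like and 139 ± 10.4 in MC38-like cells, and *Sdhb*, the iron-sulfur subunit, at 193 ± 21.1 and 201 ± 25.4. The membrane anchors *Sdhc* (132 ± 5.17 and 160 ± 18.7) and *Sdhd* (115 ± 13 and 146 ± 9.57) differed somewhat more. In osteoclast-like cells all 4 were high, *Sdha* at 583 and *Sdhb* at 589 CPM (means of 2 tumors).

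In complex III, *Uqcrc1*, a core protein, was at 166 ± 17.6 CPM in monocyte/macrophage-like and 248 ± 24.7 in MC38-like cells, and *Uqcrfs1*, the Rieske iron-sulfur protein, at 116 ± 13.5 and 174 ± 16.8 (SD, n = 8). *Cyc1*, the cytochrome c1 of the same complex, which the rule leaves out, was at 109 ± 3.59 and 252 ± 27.3. In complex IV, *Cox4i1* (522 ± 39.8 and 959 ± 69.1), *Cox6a1* (338 ± 6.31 and 528 ± 35.7), *Cox8a* (179 ± 35.3 and 352 ± 67.6) and *Cox7a2l* (93.9 ± 7.91 and 149 ± 16.5), which helps to join complexes III and IV, were all higher per UMI in MC38-like cells, whereas *Cox5a* was level (164 ± 15.8 and 163 ± 17). In complex V the catalytic *Atp5b* was at 633 ± 67.2 in monocyte/macrophage-like, 1397 ± 114 in MC38-like and 2101 ± 21 in osteoclast-like cells, and *Atp5a1* at 348 ± 44.3, 605 ± 43.4 and 1113 ± 13. *Atp5g1*, which encodes the c subunit of the rotor, was at 16.5 ± 2.58 and 34.6 ± 4.51.

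Isoforms known from muscle, lung or hypoxic tissue were rare and differed in where they were found. *Cox6a2*, the muscle isoform of *Cox6a1*, was at 17.7 ± 6.48 CPM in MC38-like cells (SD, n = 8), 3.43 ± 1.63 in monocyte/macrophage-like and under 1 in NK-like, T-like and osteoclast-like cells. *Ndufa4l2*, a hypoxia-induced relative of *Ndufa4*, was at 4.78 ± 3.97 in MC38-like cells and at 0.105 ± 0.157 in monocyte/macrophage-like cells, with none counted in DC-like, NK-like, T-like or osteoclast-like cells. *Cox4i2*, the isoform of *Cox4i1* known from lung, was seen only in monocyte/macrophage-like cells (1.47 ± 1.44; 48 UMIs in all). *Cox7a1*, a muscle isoform, was at 30.6 CPM in the osteoclast-like cells of the saline tumor and 7.15 in those of the free R848 tumor, and at 4.29 ± 1.89 in monocyte/macrophage-like cells.

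To ask which members differ between classes of the same tumor, the UMIs of each class were added up within a tumor and entered edgeR's quasi-likelihood test. Calls were made below 0.05 after Benjamini-Hochberg adjustment over all genes tested. In MC38-like against monocyte/macrophage-like cells the scale matters: TMM normalization sets the bulk of genes to no change, and per UMI of the library the median of all genes tested was 0.7 higher on the log2 scale in MC38-like cells. Relative to the bulk of genes 19 of 78 members were called higher and 34 lower (42% and 41.4% of all genes), and their median log2 fold change was -0.14. Per UMI, 70 of 78 members were above 0 and the median was 0.54. The share of members called higher was below that of all genes, and the share called lower was near it. Of the 51 members below 0 with TMM, 43 were above 0 per UMI, and 26 of these 43 had been called lower.

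Members called higher relative to other genes included *Ndufa4* (log2 fold change 1.06 ± 0.10, SE, adjusted p = 2.9e-07, edgeR), *Ndufv1* (0.67 ± 0.08), *Ndufs1* (0.59 ± 0.08) and *Uqcrq* (0.56 ± 0.08). *Ndufa4* was long placed in complex I and is now held to be a subunit of complex IV, and the core complex I genes described above stand beside it. Lower were *Ndufc2* (-1.06 ± 0.08, adjusted p = 8.2e-08, edgeR), *Cox6b1* (-0.82 ± 0.08), *Ndufa3* (-0.78 ± 0.10), *Ndufc1* (-0.72 ± 0.09) and *Cox5a* (-0.70 ± 0.08). Per UMI they were at -0.38, -0.13, -0.09, -0.04 and -0.02, so all but *Ndufc2* lay near 0. *Ndufc2* kept its call in 14 of 14 alternatives, and each of the others lost it in 1. *Ndufc1* and *Ndufc2* are neighbours in the membrane arm of complex I. By complex, all 4 members of complex II were called lower (median -0.48, per UMI 0.21), against 17 of 37 of complex I, 3 of 8 of complex III, 4 of 12 of complex IV and 6 of 16 of complex V. All 7 mt- genes tested were called lower with TMM (median -0.92). Per UMI they were below 0 too, but by less, from *mt-Nd6* (-1.61) to *mt-Nd5* (-0.02). Between these lay *mt-Nd4* (-0.50), *mt-Co1* (-0.39), *mt-Cytb* (-0.23), *mt-Nd1* (-0.22) and *mt-Nd2* (-0.09).

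**Figure D2:**
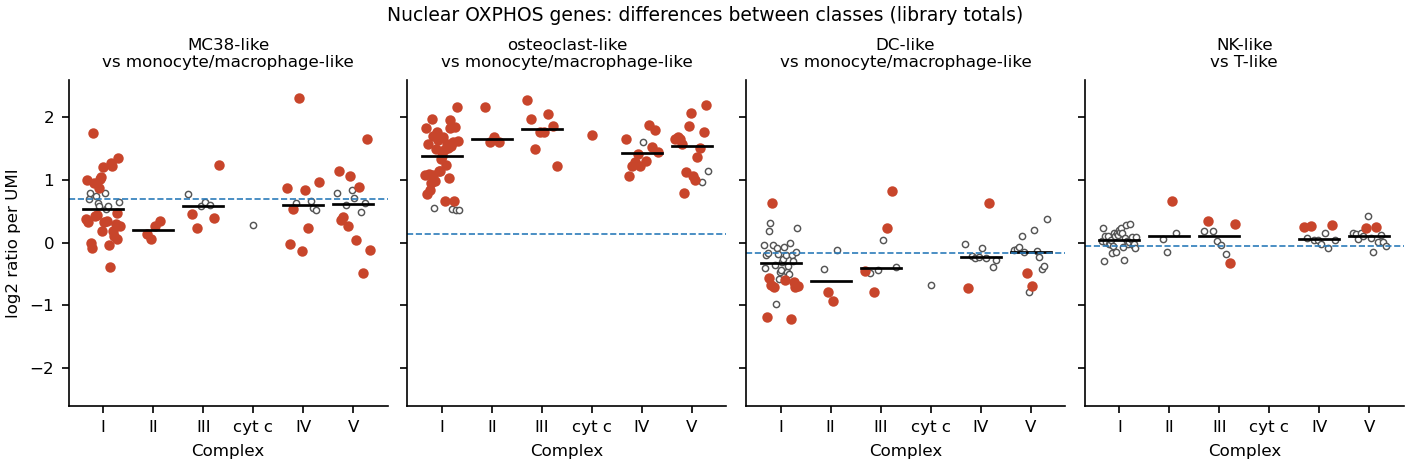
log2 ratio between classes per UMI of the library (linear axis of log2 values) for each nuclear gene tested, grouped by complex. Filled points were called by the TMM-scaled test, open points were not, black lines are medians per complex and the dashed blue line is the median of all genes tested. In osteoclast-like cells every point lies above 0, and in MC38-like cells most lie between 0 and the dashed line at 0.7.

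Osteoclast-like cells, the large bone-resorbing relatives of macrophages that are known for many mitochondria, exceeded monocyte/macrophage-like cells in all 78 members tested. Of these 71 were called higher and 0 lower (19.3% and 20% of all genes), with a median log2 fold change of 1.37 (1.51 per UMI, where the median of all genes was 0.14). *Uqcr10* (2.14 ± 0.17, SE, adjusted p = 5.2e-05, edgeR), *Ndufv1* (2.02 ± 0.17), *Sdha* (2.01 ± 0.16), *Atp5g3* (1.93 ± 0.17) and *Uqcrfs1* (1.92 ± 0.17) had the largest changes among members whose mean log2 CPM reached 4. Complex III had the highest median (1.67, 8 of 8 called) and complex I the lowest (1.24, 33 of 37). The mt- genes moved less, with 4 of 7 called higher and a median of 0.59, *mt-Cytb* at 0.74 ± 0.15 (adjusted p = 0.0058) and *mt-Co1* at -0.13 ± 0.18 (not called). This comparison rests on 2 tumors, with 43 and 72 such cells, and DESeq2 called 53 members.

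DC-like cells had 4 members called higher and 16 lower than monocyte/macrophage-like cells, of 73 tested (20.2% and 21.2% of all genes; median -0.18, all genes -0.06; per UMI -0.27 and -0.16). *Uqcrh* (0.92 ± 0.14, SE, adjusted p = 2.9e-05, edgeR), the hinge protein of complex III, *Cox7a2l* (0.74 ± 0.14), *Ndufa6* (0.72 ± 0.16) and *Uqcrfs1* (0.34 ± 0.13) were higher. *Ndufs3* (-1.10 ± 0.34), *Ndufa12* (-1.09 ± 0.25), *Sdhc* (-0.84 ± 0.15), *Sdhb* (-0.69 ± 0.16) and *Uqcrb* (-0.69 ± 0.23) were the lowest of those named. Between NK-like and T-like cells 8 of 70 members were called higher and 1 lower (11.4% and 13.1% of all genes, median 0.13), so the share called higher was that of all genes. Estimates were above 0 for 59 of the 70 members, and for 50 per UMI. With TMM 15.7% of members were below 0, against 49% of all genes. The members called higher in NK-like cells included *Sdhc* (0.73 ± 0.13, adjusted p = 0.00065, edgeR), *Uqcr11* (0.40 ± 0.12), *Uqcrq* (0.36 ± 0.09), *Cox7b* (0.33 ± 0.09) and *Cox5b* (0.33 ± 0.10), and *Uqcrh* was lower (-0.27 ± 0.09). The count of called members in this pair fell to 4 with DESeq2 and to 3 in cells with at most 5% mitochondrial UMIs, and rose to 20 with classes taken from clusters.

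In MC38-like cells most members had a lower estimate after medium R848-BPDs than after either other treatment, and 3 (against saline) or 2 (against free R848) passed the test. Their summed share of UMIs was 1.24% and 1.22% after medium R848-BPDs, against 1.45%, 1.44% and 1.4% after saline and 1.51%, 1.51% and 1.47% after free R848, so the groups did not overlap. The lower share was found in complexes I (0.38% ± 0.00839, SD, n = 2, against 0.459% ± 0.0146 after saline and 0.48% ± 0.0101 after free R848, n = 3 each), IV (0.285% ± 0.00456, 0.322% ± 0.0168 and 0.335% ± 0.0061) and V (0.363% ± 0.0132, 0.429% ± 0.00807 and 0.446% ± 0.0115). In complex II it was 0.0585% ± 0.00579, against 0.0651% ± 0.00163 and 0.0682% ± 0.000959. In complex III it was 0.143% ± 0.00659, which overlapped the 0.152% ± 0.00906 after saline and lay below the 0.168% ± 0.0017 after free R848. Sums over members were not tested. Of 79 members tested with edgeR, 68 had a lower estimate after medium R848-BPDs than after saline (86.1%, against 48.6% of all genes), with a median log2 fold change of -0.25 (all genes 0.01), and 74 were lower than after free R848 (93.7%, against 49.4% of all genes), with a median of -0.29. These 2 comparisons share the medium R848-BPD tumors. After medium R848-BPDs the summed share of DC-like cells (0.674% to 0.683%) also lay below all other tumors (0.694% to 0.937%). So did that of T-like cells (1.18% to 1.23%, against 1.25% to 1.38%), but not of NK-like or monocyte/macrophage-like cells. Against saline, 85% of members were lower in DC-like (median -0.30), 80.8% in NK-like, 76.1% in T-like and 72.5% in monocyte/macrophage-like cells. Of all genes 49% to 50.8% were.

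Few members passed the test singly in MC38-like cells. Against saline 3 of 79 members were called lower and 0 higher (0.805% of all genes were called lower), and against free R848 2 were called lower and 0 higher (0.15% of all genes). *Ndufb7*, an accessory subunit of complex I in the intermembrane space (chromosome 8, 83566671 to 83571626), was at 165 and 133 CPM after medium R848-BPDs, at 214, 213 and 230 after saline and at 262, 249 and 240 after free R848. All 6 other tumors were above both medium R848-BPD tumors, and the log2 fold changes were -0.54 ± 0.12 against saline (adjusted p = 0.048, edgeR) and -0.74 ± 0.12 against free R848 (adjusted p = 0.025). *Ndufa5*, an accessory subunit of the matrix arm (chromosome 6, 24518666 to 24528013), was at 83.5 and 57.4 after medium R848-BPDs, 121, 129 and 122 after free R848 and 112, 113 and 89.6 after saline, which gave -0.82 ± 0.15 against free R848 (adjusted p = 0.041, edgeR).

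The other members called were subunits of the membrane part of the ATP synthase. *Atp5k*, the e subunit (chromosome 5, 108433244 to 108434448), was at 89.8 and 75.4 CPM after medium R848-BPDs, against 138, 127 and 118 after saline and 124, 146 and 123 after free R848 (log2 fold change against saline -0.63 ± 0.13, adjusted p = 0.041, edgeR). *Atp5j2*, the f subunit (chromosome 5, 145183698 to 145192062), was at 254 and 209, against 377, 333 and 325 after saline and 333, 383 and 365 after free R848 (-0.57 ± 0.12, adjusted p = 0.048). For both, the medium R848-BPD tumors lay below the 6 others. The fold changes kept their sign in all 15 alternatives, but the calls did not hold: *Atp5k* was called in 6 of them, *Ndufb7* and *Atp5j2* in 5 each against saline, and *Ndufb7* in 10 and *Ndufa5* in 8 against free R848. The number of members called ranged from 0 to 8 against saline and from 0 to 12 against free R848. Against saline it was 0 without any single free R848 tumor, when medium R848-BPD replicate 2 was left out, and likewise for saline replicate 1 or 3. It was 1 without saline replicate 2. Against free R848 it was 0 without any single free R848 tumor or medium R848-BPD replicate 2, 1 without saline replicate 1 and 4 without saline replicate 2. Without medium R848-BPD replicate 1 it was 7 in both comparisons, with the remaining tumor assumed to vary like the other groups.

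**Figure D3:**
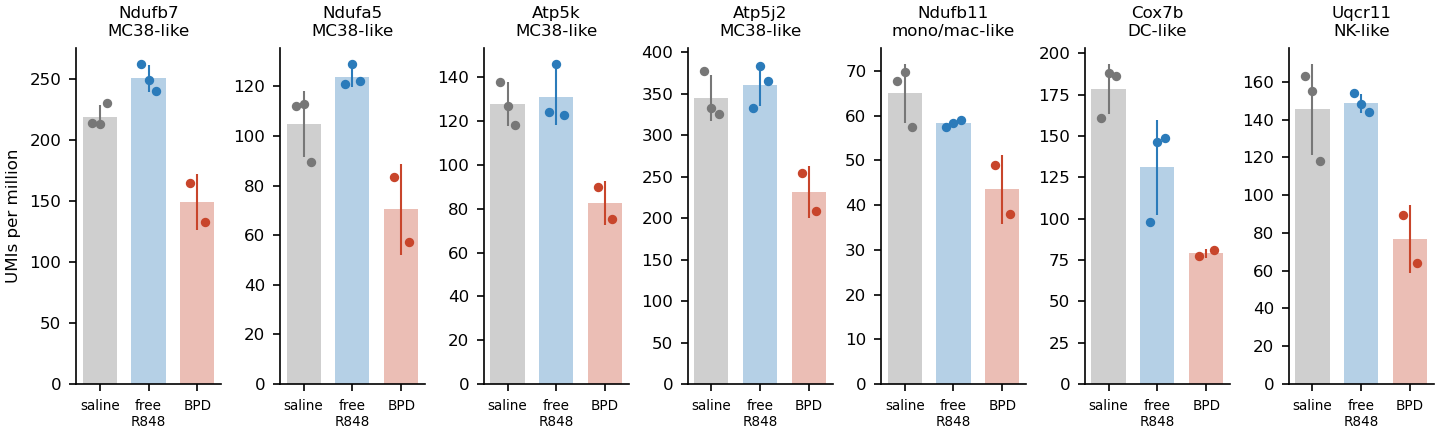
CPM (linear axes from 0) of 7 members in the class where each was called or had the smallest p, by treatment; points are tumors, bars means and lines SDs (n = 3, 3 and 2), and BPD stands for medium R848-BPD. In each panel both medium R848-BPD tumors lie below all other tumors, a separation that choosing genes by their p favours. *Uqcr11* in NK-like cells was not called.

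**Figure D4:**
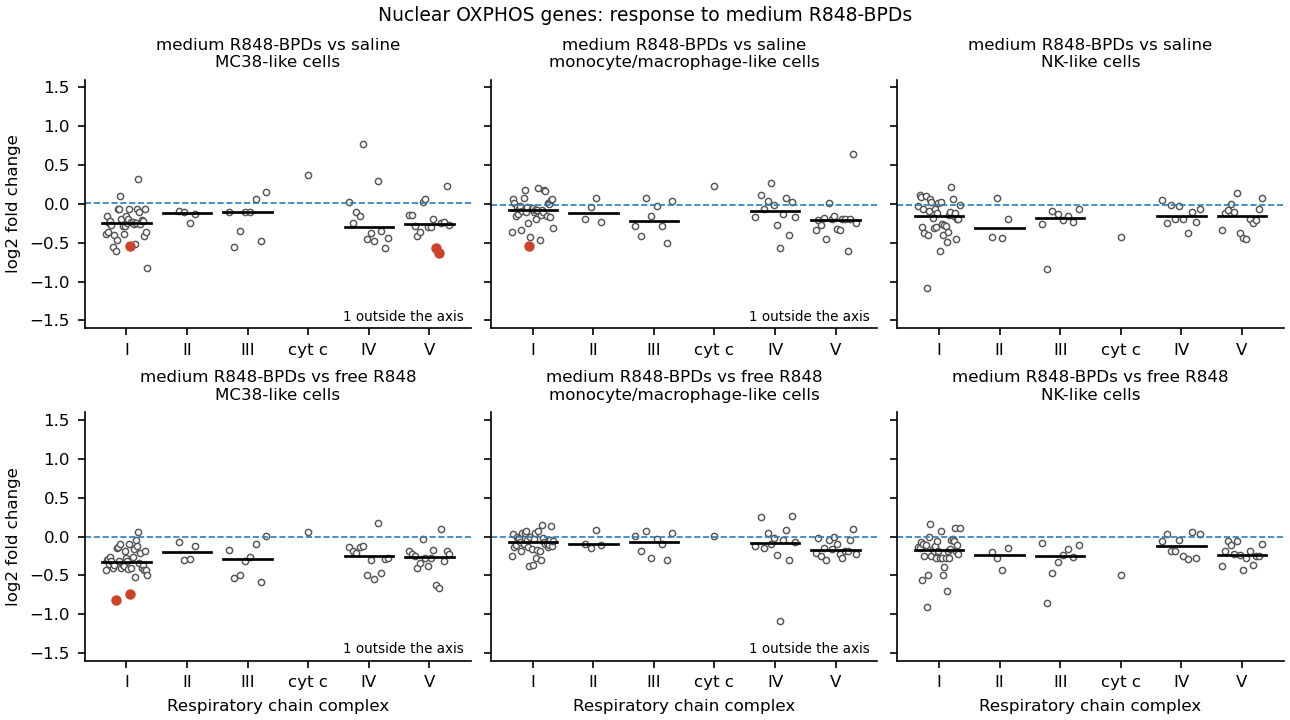
log2 fold changes of the nuclear genes tested (linear axis of log2 values) after medium R848-BPDs against saline (upper row) and against free R848 (lower row) in 3 classes, grouped by complex. Filled points were called, open points were not, black lines are medians per complex, dashed lines are medians of all genes and points beyond the axis are counted in the panel. In all 3 classes the medians of complexes I to V lie below the dashed line in both rows.

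No member differed in MC38-like cells between free R848 and saline by this test. Against saline 0 of 79 were called (edgeR, 0% of all genes; DESeq2 called 0 members), 4 had an unadjusted p under 0.05 and the median log2 fold change was 0.06. *Cox6a2* had the smallest p (0.88 ± 0.33, SE, adjusted p = 0.56), with 5.9, 17 and 12.3 CPM after saline and 23.6, 22.9 and 20.5 after free R848, and *Ndufa6* (-0.32 ± 0.13) and *Ndufa8* (0.25 ± 0.10) followed. The summed UMIs of 11 monocyte/macrophage markers within MC38-like cells, all of them detected, were 110 to 138 CPM after medium R848-BPDs, 191 to 323 after free R848 and 207 to 725 after saline. Their part in the difference was not tested. Median UMIs per MC38-like cell were 15603 and 9737 after medium R848-BPDs, 12868, 11670.5 and 9258 after free R848 and 10784, 13808 and 7245 after saline, and overlapped.

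Of the 15 glycolysis genes 1 was called lower in the same MC38-like cells in each comparison (0.805% of all genes against saline and 0.15% against free R848), *Slc2a1*, the glucose transporter GLUT1, against saline (-1.15 ± 0.19, SE, adjusted p = 0.013, edgeR) and *Pgk1* against free R848 (-0.90 ± 0.16, adjusted p = 0.035). The median log2 fold change over the list was -0.51 against saline and -0.52 against free R848. Other lists had medians nearer 0. Against saline none of 40 assembly factors (median -0.01), 17 genes of the citrate cycle (-0.09), 73 of the mitochondrial ribosome (-0.04), 86 of the cytosolic ribosome (0.03) or 14 regulators of mitochondrial biogenesis (0.10) was called.

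In monocyte/macrophage-like cells 1 member was called. The summed share was 0.867% and 0.79% after medium R848-BPDs, 0.938%, 0.988% and 0.867% after saline and 0.933%, 0.913% and 0.857% after free R848, and the groups overlapped. Of 80 members 1 was called lower against saline and 0 higher (3.32% of all genes were called lower), with a median log2 fold change of -0.13. The gene was *Ndufb11*, an X-linked accessory subunit of complex I (chromosome X, 20615326 to 20617619), at 49 and 38.1 CPM after medium R848-BPDs, 67.7, 69.7 and 57.5 after saline and 57.5, 58.3 and 59.1 after free R848 (-0.54 ± 0.13, SE, adjusted p = 0.043, edgeR). Both medium R848-BPD tumors were below all others, and the call held in 4 of 15 alternatives. *Ndufb11* shares a run of 50 bases near its 3' end with 1 other gene. Against free R848 0 of 80 members were called (1.6% of all genes; 6 with an unadjusted p under 0.05; DESeq2 0), *Ndufb11* (-0.38 ± 0.13, adjusted p = 0.22), *Atp5e* (-0.30 ± 0.12) and the rare *Cox4i2* (-3.43 ± 1.45) having the smallest p. Between free R848 and saline 0 were called (0.0189% of all genes; 4 with an unadjusted p under 0.05; DESeq2 0), and *Ndufb2* (-0.41 ± 0.11, adjusted p = 0.28), *Ndufc1* (-0.30 ± 0.13) and *Ndufv3* (-0.25 ± 0.11) had the smallest p.

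Of the genes whose products act on respiration in activated macrophages, *Nos2* was called. It was at 240 and 470 CPM after medium R848-BPDs, 7.38, 22 and 36.2 after saline and 46.8, 20.3 and 39.7 after free R848. The log2 fold change was 4.11 ± 0.57 against saline (adjusted p = 0.0054, edgeR) and 3.37 ± 0.55 against free R848 (adjusted p = 0.023). *Irg1*, at 259 and 404 against 117, 159 and 298 after saline, was not called (0.83 ± 0.42, adjusted p = 0.26). In DC-like cells *Irg1* was at 63.6 and 134, against 0, 0 and 9.07 after saline, and was called (adjusted p = 0.0048, edgeR). Among the other lists, in monocyte/macrophage-like cells, *Idh2* of the citrate cycle (-0.80 ± 0.19, adjusted p = 0.041), *Myc* of the regulators (-0.99 ± 0.16, adjusted p = 0.011) and *Pfkp* of glycolysis (-1.10 ± 0.20, adjusted p = 0.015) were lower against saline and *Mrpl45* of the mitochondrial ribosome (0.97 ± 0.13, adjusted p = 0.0045) was higher. In this comparison 3.32% of all genes were called lower and 362 of 10587 higher, and each list had at most 1 call in a direction. No assembly factor of 40 was called (median 0.06). Of 81 cytosolic ribosomal genes *Rps15* was lower (-0.53 ± 0.13) and *Rps6kc1*, a kinase gene that the symbol rule catches, was higher (0.76 ± 0.15). In these cells the 8 neutrophil markers summed to 532 to 646 CPM after medium R848-BPDs, 31.8 to 79.5 after saline and 77.4 to 130 after free R848, with none at 0, and 7 osteoclast markers to 934 to 1264, 141 to 441 and 547 to 607, with *Calcr* at 0 after saline and medium R848-BPDs. Their part in these results was not tested.

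A test of the difference in response between MC38-like and monocyte/macrophage-like cells called none of 81 members for medium R848-BPDs against saline (edgeR, 2.13% of all genes; 7 with an unadjusted p under 0.05; DESeq2 0). The smallest p belonged to *Cox6b1* (-0.44 ± 0.16, SE, adjusted p = 0.19), *Ndufb9* (-0.44 ± 0.17) and *Ndufv2* (-0.41 ± 0.17), each lower in MC38-like cells. For medium R848-BPDs against free R848 none was called either (0.5% of all genes; 11 with an unadjusted p under 0.05; DESeq2 0), with *Cox7a2* (-0.51 ± 0.16, adjusted p = 0.26), *Ndufa5* (-0.62 ± 0.20) and *Cox6b1* (-0.48 ± 0.16) first. For free R848 against saline the count was 0 (0% of all genes; 2 with an unadjusted p under 0.05; DESeq2 0), with *Ndufa9* (0.37 ± 0.15, adjusted p = 0.49), *Uqcr10* (0.39 ± 0.17) and *Uqcrh* (0.32 ± 0.15) first. The lower estimates in MC38-like cells are therefore not shown to differ from those in monocyte/macrophage-like cells gene by gene.

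In NK-like cells no member was called, although *Uqcr11* and *Ndufa4* had sizeable estimates. Of 73 members 59 had a lower estimate after medium R848-BPDs than after saline (80.8%, against 50.8% of all genes; median log2 fold change -0.18), and 0 were called (edgeR, 0.835% of all genes; 8 with an unadjusted p under 0.05; DESeq2 0). *Uqcr11*, the smallest subunit of complex III (chromosome 10, 80402997 to 80406830), was at 89.7 and 64.2 CPM after medium R848-BPDs, 163, 155 and 118 after saline and 154, 148 and 144 after free R848 (-0.84 ± 0.20, SE, adjusted p = 0.066, edgeR). *Ndufa4* (chromosome 6, 11900292 to 11907497) was at 61.5 and 20.3, against 132, 108 and 74.8 after saline and 98.6, 91.4 and 95.2 after free R848 (-1.08 ± 0.29, adjusted p = 0.10). In both genes the medium R848-BPD tumors were below the 6 others, and medium R848-BPD replicate 2 was the lower one, with 59 NK-like cells. *Atp5g3* followed (-0.44 ± 0.17, adjusted p = 0.34). Against free R848 0 members were called as well (0.393% of all genes; 8 with an unadjusted p under 0.05; DESeq2 0), with *Uqcr11* (-0.86 ± 0.20, adjusted p = 0.10), *Ndufa4* (-0.91 ± 0.29) and *Ndufb7* (-0.49 ± 0.17) first. Between free R848 and saline 0 were called (0% of all genes; 1 with an unadjusted p under 0.05; DESeq2 0), and *Sdhb* (0.35 ± 0.17, adjusted p = 1), *Ndufa8* (0.27 ± 0.16) and *Ndufa10* (0.26 ± 0.16) came first. The 8 neutrophil markers summed to 113 to 118 CPM in NK-like cells after medium R848-BPDs, with none at 0, against 2.54 to 3.33 after saline and 2.32 to 19.3 after free R848. Their part in these values was not tested.

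*Ndufa4* was read beside *AA467197* (also *Nmes1*), which encodes a relative of NDUFA4 known to replace it in complex IV of activated macrophages, a gene added after its values were seen. In NK-like cells *AA467197* was at 833 and 666 CPM after medium R848-BPDs, 429, 322 and 211 after free R848 and 167, 221 and 188 after saline, which gave 1.98 ± 0.22 against saline (adjusted p = 0.0002, edgeR) and 1.22 ± 0.21 against free R848 (adjusted p = 0.018). Both medium R848-BPD tumors were above all others. They also exceeded their own monocyte/macrophage-like cells, at 169 and 212. In T-like cells the estimates had the same signs (*AA467197* 1.45 ± 0.40, adjusted p = 0.32, and *Ndufa4* -0.61 ± 0.32, adjusted p = 0.86, against saline), and neither was called. In monocyte/macrophage-like cells *AA467197* was at 234, 266 and 221 after saline and was not called (-0.30 ± 0.18, adjusted p = 0.35), and MC38-like cells had 12.2 ± 6.51 of it (SD, n = 8) beside 149 ± 20.9 of *Ndufa4*, against 216 ± 34.5 and 44.4 ± 6.1 in monocyte/macrophage-like cells.

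**Figure D5:**
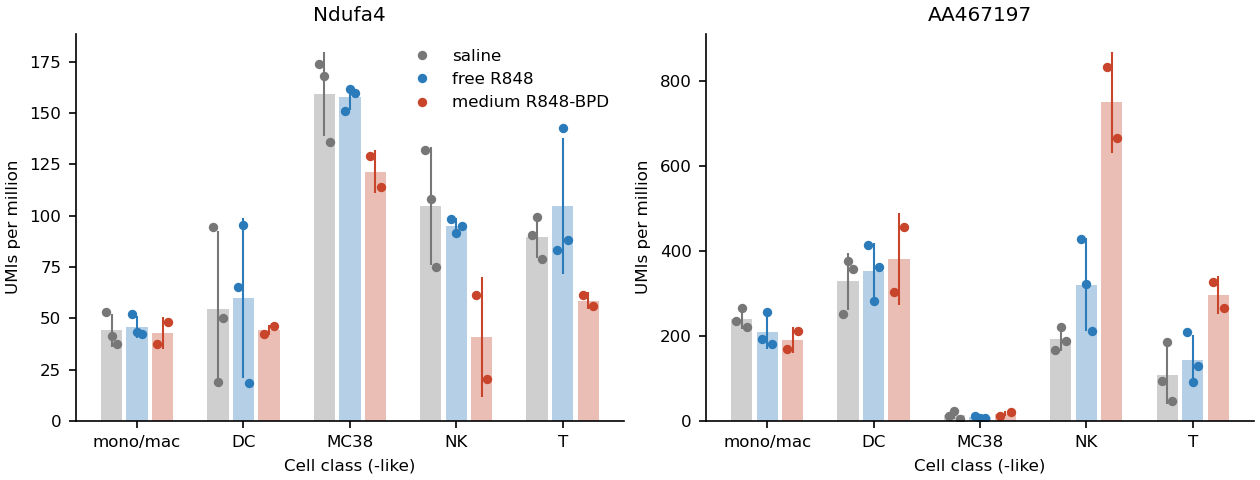
CPM (linear axes from 0) of *Ndufa4* (left) and *AA467197* (right) by class and treatment; points are tumors, bars means and lines SDs (n = 3, 3 and 2). In NK-like cells after medium R848-BPDs *Ndufa4* (61.5 and 20.3) lies below and *AA467197* (833 and 666) above the other tumors, and MC38-like cells have the highest *Ndufa4* and the lowest *AA467197* of the 5 classes.

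Only *Cox7b* was called in T-like and DC-like cells. In T-like cells 0 of 67 members were called after medium R848-BPDs against saline (edgeR, 0.152% of all genes; 0 with an unadjusted p under 0.05; DESeq2 0; median -0.12), where *Atp5h* (-0.50 ± 0.23, SE, adjusted p = 0.78), *Uqcr11* (-0.73 ± 0.35) and *Ndufb2* (-0.68 ± 0.34) came first. Against free R848 0 were called (0.0847% of all genes; 2 with an unadjusted p under 0.05; DESeq2 0), with *Ndufa4* (-0.76 ± 0.30, adjusted p = 0.57), *Cox6b1* (-0.61 ± 0.28) and *Ndufs6* (-0.54 ± 0.30) first. For free R848 against saline 0 were called (0.0339% of all genes; 0 with an unadjusted p under 0.05; DESeq2 0), with *Uqcr10* (-0.48 ± 0.24, adjusted p = 1), *Sdhc* (-0.51 ± 0.27) and *Ndufa3* (-0.56 ± 0.30) first. In DC-like cells 1 of 60 members was called lower after medium R848-BPDs against saline and 0 higher (4.2% of all genes were called lower; median -0.30). It was *Cox7b*, an X-linked subunit of complex IV (chromosome X, 106015700 to 106022450), at 77.1 and 80.7 CPM after medium R848-BPDs, 161, 188 and 186 after saline and 97.8, 146 and 149 after free R848 (-1.12 ± 0.31, adjusted p = 0.032, edgeR). The call held in 7 of 15 alternatives. Against free R848 0 of 60 were called (0.237% of all genes; 1 with an unadjusted p under 0.05; DESeq2 0), with *Cox7b* (-0.75 ± 0.31, adjusted p = 0.52), *Cox5a* (-0.67 ± 0.32) and *Atp5h* (-0.68 ± 0.34) first. For free R848 against saline 0 were called (1.1% of all genes; 2 with an unadjusted p under 0.05; DESeq2 0), with *Ndufa9* (-0.82 ± 0.36, adjusted p = 0.24), *Ndufs8* (-0.76 ± 0.35) and *Ndufa6* (-0.61 ± 0.29) first.

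Genes of the mt- group were called lower after medium R848-BPDs against saline in monocyte/macrophage-like and DC-like cells. In monocyte/macrophage-like cells 3 of 7 were called lower against saline and 0 higher (median -0.59; 3.32% of all genes were called lower). *mt-Nd1* was at 121 and 121 CPM after medium R848-BPDs, 214, 263 and 171 after saline and 131, 176 and 143 after free R848 (-0.80 ± 0.18, SE, adjusted p = 0.035, edgeR), and *mt-Cytb* at 61.8 and 48, against 94.3, 102 and 88.4 after saline (-0.76 ± 0.19, adjusted p = 0.048). The third was *mt-Nd4* (-0.80 ± 0.18, adjusted p = 0.037), while *mt-Co1* was not called (-0.32 ± 0.18, adjusted p = 0.32). In DC-like cells 1 of 6 was called lower (4.2% of all genes), *mt-Nd1*, at 86.7 and 80.7 against 224, 263 and 195 after saline (-1.36 ± 0.30, adjusted p = 0.012). Against free R848 0 of 7 (median -0.33; 1.6% of all genes) and 0 of 6 (median -0.24; 0.237% of all genes) were called in these classes, with 2 and 0 at an unadjusted p under 0.05 (edgeR). In DC-like cells the summed mt- share after free R848 (0.0739% to 0.0791%) was also below that after saline (0.103% to 0.116%), without overlap, and 0 of 6 genes were called between these groups (median -0.68; 2 with an unadjusted p under 0.05). In NK-like cells *mt-Nd1*, at 185 and 227 against 337, 531 and 328, was not called (-0.99 ± 0.23, adjusted p = 0.056), and none of 6 was (0.835% of all genes). The median was -0.72 there, with 5 of 6 at an unadjusted edgeR p under 0.05. Against free R848 it was -0.63, with 6 of 6 under 0.05 and 0 called (0.393% of all genes). In T-like cells 0 of 6 were called against saline (median -0.57, 3 under 0.05, 0.152% of all genes) or free R848 (-0.29, 2, 0.0847%). The summed mt- share after medium R848-BPDs lay below all other tumors in both classes (0.0994% to 0.118% and 0.119% to 0.133%). In MC38-like cells 0 of 7 were called (0.805% of all genes were called lower), 6 of 7 had a positive estimate and the median was 0.17. The test of the difference between MC38-like and monocyte/macrophage-like cells called 0 of 7 (edgeR; 6 with an unadjusted p under 0.05; *mt-Nd4* first, 1.17 ± 0.32, adjusted p = 0.081). In monocyte/macrophage-like cells *mt-Nd1* lost its call without either medium R848-BPD tumor, saline replicate 1 or free R848 replicate 3 (adjusted p = 0.065 to 0.19, edgeR), and *mt-Cytb* in 9 of 15 alternatives (adjusted p = 0.058 to 0.3). Their log2 fold changes stayed between -0.91 and -0.68 for *mt-Nd1* and between -0.90 and -0.63 for *mt-Cytb*. Mitochondrial rRNA took 3.84% ± 0.203 of UMIs in these cells after saline and 3.24% ± 0.294 after medium R848-BPDs (mean ± SD, n = 3 and 2).

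Among the wider lists in the class comparisons, the citrate cycle moved with the members in osteoclast-like cells, where 16 of 16 genes tested were higher than in monocyte/macrophage-like cells (median 1.53; 19.3% of all genes were called higher), beside 16 of 39 assembly factors (0.63), 38 of 73 genes of the mitochondrial ribosome (0.69), 37 of 75 of the cytosolic ribosome (0.59), 3 of 13 regulators (0.43) and 4 of 15 glycolysis genes (0.12). *Ppargc1b*, a coactivator of mitochondrial biogenesis, was at 101 ± 29.7 CPM in osteoclast-like cells (SD, n = 2) and 4.53 ± 1.94 in monocyte/macrophage-like cells. In MC38-like cells, relative to monocyte/macrophage-like cells, 21 of 40 assembly factors were called higher and 14 lower (median 0.32; 42% and 41.4% of all genes), 10 and 4 of 17 citrate cycle genes (0.25), 36 and 18 of 72 of the mitochondrial ribosome (0.20), 67 and 6 of 84 of the cytosolic ribosome (0.60), 6 and 2 of 13 regulators (0.32) and 1 and 6 of 15 glycolysis genes (-0.14). These counts and medians are on the TMM scale, and library totals shift the log2 values of this comparison by 0.68. *Tfam*, which packages and transcribes mitochondrial DNA, was higher (0.80 ± 0.09, SE, adjusted p = 2.5e-06, edgeR) and *Ucp2*, an inner-membrane carrier, was at 9.96 ± 4.8 CPM against 452 ± 67.1 in monocyte/macrophage-like cells. In DC-like cells 12 of 15 glycolysis genes were called lower than in monocyte/macrophage-like cells and 1 higher (median -0.93; 21.2% and 20.2% of all genes), and in NK-like against T-like cells 3 of 16 citrate cycle genes were called higher and 0 lower (median 0.19; 11.4% and 13.1% of all genes).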

How the data were processed

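Counts of unique molecular identifiers (UMIs) per gene and barcode were deposited by the authors, 1 file for each of 8 tumors, after Seq-Well libraries were read on a NextSeq and aligned to mm10, with bcl2fastq named in the submitters' processing notes. The aligner and the annotation are not given in the sources used here. Of 10791 barcodes, 9886 had 400 to 10000 genes, under 50000 UMIs and at most 15% mitochondrial UMIs, and 48 of these were left out because their 7 barcode sequences occurred in at least 4 tumors. A further 4 barcodes occurred in 2 tumors and were kept. Cells were placed in classes by summed marker UMIs per 10000. No doublet caller was run, and 380 cells past the limits of several classes were left out, while 419 reached none.

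Counts were summed per tumor and class (at least 10 cells) and fitted with edgeR 4.0.16 (R 4.3.3; TMM, filterByExpr, quasi-likelihood test, Benjamini-Hochberg over all genes tested, threshold 0.05). Treatments were compared within a class over all 8 tumors, and classes with the tumor as a block. DESeq2 1.42.0, other scalings, no filter on low counts, cells with at most 5% mitochondrial UMIs, classes from clusters, a replicate block and leaving out each tumor were the alternatives. The scripts were tested on simulated data. Each p-value sets an effect against the spread between these tumors, which the fit pools over groups and moderates with other genes. CPM (UMIs per 1000000 UMIs) are not corrected for length, so levels are compared within a gene.

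The members and lists were chosen with earlier results of these data known. The genes named were role genes of each complex, up to 5 called members of each treatment comparison with the smallest adjusted p (otherwise 3 with the smallest p), and up to 5 called members in each direction with the largest change in each class comparison at a mean log2 CPM of at least 4. *AA467197*, *Cox7c* and *Atp5l* were added after their values were seen. Where the tumors of a named gene do not overlap between treatments, its choice by p favours this. Positions are those of GENCODE vM21 (GRCm38). A gene that this rule names is not reported here.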

Additional observations from a re-analysis of the deposited data

Results flagged for a closer look

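The response to medium R848-BPDs against saline differed between MC38-like and monocyte/macrophage-like cells in 7 genes set beside the members, 5 of them from the 6 lists and *Nos2* and *Ucp2* named singly, where 2.13% of all 11794 genes tested were called, by the interaction term of the edgeR quasi-likelihood test (log2 values, MC38-like minus monocyte/macrophage-like, Benjamini-Hochberg adjusted over all genes tested). The glucose transporter gene *Slc2a1* differed by -1.43 (adjusted p = 0.0068), and the glycolytic enzyme genes *Pkm* by -0.95 (adjusted p = 0.029) and *Tpi1* by -0.86 (adjusted p = 0.043). *Nos2*, for the inducible nitric oxide synthase, differed by -3.08 (adjusted p = 0.012) and *Ucp2*, for a mitochondrial carrier, by -1.38 (adjusted p = 0.046). In MC38-like cells *Ucp2* was at 13.5, 18.2 and 11 CPM in the saline tumors and at 5.93 and 4.61 in the medium R848-BPD tumors. The 11 monocyte/macrophage markers there summed to 207 to 725 and 110 to 138 CPM, and their part in this difference was not tested. *Mrpl45* of the mitochondrial ribosome differed by -1.04 (adjusted p = 0.017). The transcription factor gene *Myc* differed in the other direction, by 1.42 (adjusted p = 0.0068). No nuclear subunit gene was among them.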

How the results depend on the processing

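Below are the numbers of members called under settings that moved them. After medium R848-BPDs against saline, the 1 member of monocyte/macrophage-like cells became 0 with library totals in place of TMM (chosen after seeing the data), DESeq2, cells with at most 5% mitochondrial UMIs or the replicate block, and 0 to 2 with a tumor left out. The 3 of MC38-like cells became 8 with no filter on low counts, 5 with DESeq2, 1 with at most 5% mitochondrial UMIs, 0 with classes from clusters, 1 with the replicate block and 0 to 7 with a tumor left out. The 2 against free R848 became 12, 7, 2, 1 and 0 in that order, and 0 to 7. The 1 of DC-like cells became 0 with no filter, DESeq2, at most 5% mitochondrial UMIs or the block, and 0 to 1 with a tumor left out. In NK-like cells 0 became 2 with no filter in both comparisons with medium R848-BPDs, and 0 to 2 (against saline) or 0 to 1 (against free R848) with a tumor left out. The 20 of DC-like against monocyte/macrophage-like cells became 13 to 19 with a tumor left out, 13 without free R848 replicate 3. The 9 of NK-like against T-like cells became 4 with DESeq2, 3 with at most 5% mitochondrial UMIs, 20 with classes from clusters and 5 to 11 with a tumor left out. The cause was not tested.

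With library totals, 43 of 78 members turned from lower to higher in MC38-like against monocyte/macrophage-like cells, 26 of them called lower with TMM, since this scale moves the median of all genes by 0.68. Among the role genes named for each complex these were *Sdha* (0.14), *Sdhb* (0.06), *Sdhc* (0.27), *Sdhd* (0.34), *Uqcrc1* (0.58), *Uqcrfs1* (0.60), *Cox6a1* (0.64), *Cox7a2l* (0.66) and *Atp5k* (0.49). Deviations of same-numbered tumors correlated between -0.232 and 0.242, and 5 of 35 such pairs passed 0.1. The deviations are from group means and so offset each other within a group. This check therefore cannot tell whether the tumors were paired. A fit left with 1 medium R848-BPD tumor assumes that it varies like the others. Osteoclast-like cells could not be fitted without either of their tumors.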
